A study of Drosophila melanogaster with 2 samples.

Results

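Regions called in chromatin immunoprecipitation and sequencing (ChIP-seq) of CG6654 were examined in the pericentric stretches of 4 chromosome arms of Drosophila melanogaster. A region was taken as pericentric when its summit, the position of highest enrichment that the authors deposited, lay on 2L at or beyond 22.0 Mb, on 3L at or beyond 22.9 Mb, on 3R before 4.2 Mb or on X at or beyond 22.6 Mb of the dm6 build. By this rule 984 of the 30000 regions listed for replicate 1 were pericentric, as were 174 of the 30000 listed for replicate 3, 382 of the 30000 called on the pooled reads, and 2 of the 2962 peaks in the set that the authors selected by the irreproducible discovery rate (IDR). The 4 lists together gave 1542 pericentric entries of 92962, and the same site can stand in several lists. All embryos came from a transgenic line that carries an insertion making CG6654 with enhanced green fluorescent protein (eGFP) fused to its C terminus, and no untagged or mutant embryos were compared. They were whole embryos of both sexes, 0 to 12 h old, and an antibody against GFP was used on both biological replicates, numbered 1 and 3. Each value is therefore an average over stages and over every cell type of the embryo. No read totals come with the lists, so library depth is unknown, and control data were not used here. Intervals given below are 95% Wilson intervals and cover counting error over regions or genes only.

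Pericentric chromatin is the constitutive heterochromatin that flanks each centromere. It is rich in transposable elements and satellite repeats, carries histone H3 methylated at lysine 9 and bound by heterochromatin protein HP1a, and stays condensed through most of the cell cycle. It is not empty of genes: Drosophila heterochromatin holds essential genes, many with introns swollen by repeats, and several of them need the heterochromatic setting for normal expression. CG6654 belongs to the family of C2H2 zinc finger proteins with a zinc finger-associated domain (ZAD), a family that includes DNA-binding proteins of insulators.

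The stretches held 11.7 Mb of known sequence, against 95.3 Mb in the rest of the same arms. Repeats that the RefSeq assembly soft-masks made up 40.7% of the stretches and 17.5% of the rest, and annotated transposable elements made up 15.1% and 4.07%. Of the 31-base words in the sequence, 40.2% in the stretches and 94.4% in the rest occur at a single place in the assembly, a measure of how much of it a short read can be assigned to. The annotation places a start site of 116 protein-coding genes inside the limits, 37 on 2L, 42 on 3L, 14 on 3R and 23 on X.

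The sites that carry most of what follows are shown first. Both pericentric IDR peaks lay on X. The stronger is printed whole, from X:22968548-22968765, and the weaker as 50 bp on each side of its summit, X:22833661-22833761. Capitals mark exact matches, on either strand, to the 3 words of 8 bases most in excess at IDR summits outside the pericentric stretches (ACAGTTTG, CAGTTTGA and AAACTGTA); the sequences are the plus strand of the RefSeq Release 6 assembly.
Stronger peak: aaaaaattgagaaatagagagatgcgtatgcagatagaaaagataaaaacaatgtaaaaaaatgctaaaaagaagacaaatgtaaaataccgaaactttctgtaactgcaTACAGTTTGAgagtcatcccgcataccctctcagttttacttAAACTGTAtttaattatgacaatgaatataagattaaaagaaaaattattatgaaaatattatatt
Weaker peak: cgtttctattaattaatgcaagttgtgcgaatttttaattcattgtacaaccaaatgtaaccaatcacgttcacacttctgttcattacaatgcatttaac

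Sites that differ between the replicates are shown beside them as windows of the same width, in which none of the 3 words occurs. The first lies upstream of CG12768 (3L:22909994-22910094) and the second upstream of MED21 (3L:25116145-25116245), and both sites were in the lists of both replicates. The third and the fourth are the highest pericentric regions of replicate 1 that replicate 3 does not match (3L:26718130-26718230 and 2L:23371981-23372081).
CG12768 upstream: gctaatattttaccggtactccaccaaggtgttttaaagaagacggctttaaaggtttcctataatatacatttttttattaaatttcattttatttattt
MED21 upstream: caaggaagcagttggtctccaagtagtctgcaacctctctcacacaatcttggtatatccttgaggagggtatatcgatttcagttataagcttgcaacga
Replicate 1 on 3L: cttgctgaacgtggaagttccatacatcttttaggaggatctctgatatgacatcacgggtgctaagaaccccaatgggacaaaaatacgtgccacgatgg
Replicate 1 on 2L: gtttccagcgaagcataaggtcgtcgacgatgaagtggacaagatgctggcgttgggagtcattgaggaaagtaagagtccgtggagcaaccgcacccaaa

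The window upstream of CG12768 has a GC content of 25.7%, and that upstream of MED21 has 43.6%. The unmatched windows of replicate 1 have 46.5% on 3L and 52.5% on 2L, and in the window on 2L only 47.9% of the 31-base words are unique in the assembly.

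The stronger X peak was the only pericentric region that stood among the 2962 regions of highest signal in both replicates. The signal value is the authors' score per region, whose scale is not stated, and ranks within a list are used to read it. At this site the score was 105 in replicate 1 (rank 545), 96.2 in replicate 3 (rank 1090) and 194 in the pooled list (rank 831), and the summits of the replicates lay 4 bp apart. The peak is intergenic, and its pooled summit lies 6289 bp from the start of CG40485 (FBgn0069973), the nearest start of any gene. The word ACAGTTTG lies at X:22968659-22968666 with its midpoint 14 bp from the pooled summit, and the word AAACTGTA lies at X:22968700-22968707, 55 bp from it. A second, weaker region overlaps the same peak on its downstream side, with a score of 23.5 in replicate 3 (rank 9567) and 28 in the pooled list (rank 14350).

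The weaker X peak lies in overlapping introns of fog, which encodes the secreted ligand that drives cell constriction at gastrulation, and of CG42346. Its pooled summit is 128 bp from the start of the microRNA gene mir-2491 (FBgn0262237) and 1312 bp from the nearest protein-coding start, that of CG42346 (FBgn0259677). Its score was 21.9 in replicate 1 (rank 6702), 53.4 in replicate 3 (rank 2559) and 79.2 in the pooled list (rank 2794). The site thus stood lower in the list of replicate 1 than in that of replicate 3, though in the upper part of both. A further site in fog, at summit X:22837565, had scores of 14.5 in replicate 1 and 40.8 in replicate 3, the same order.

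Pericentric regions were sparser than regions elsewhere on the same arms in every list, and by different amounts in the replicates. Replicate 1 had 83.9 regions per Mb of known pericentric sequence, against 250 per Mb in the rest of the arms. For replicate 3 the values were 14.8 against 254 per Mb, for the pooled list 32.6 against 255, and for the IDR set 0.171 against 25.7. Replicate 1 thus placed 3.28% of its list in the stretches and replicate 3 placed 0.58%. On each arm replicate 1 had more regions than replicate 3: 157 and 55 on 2L, 478 and 59 on 3L, 273 and 22 on 3R, and 76 and 38 on X. The lists have a fixed length, so a count in the stretches also depends on how many regions a library has elsewhere, and the part that depth plays was not tested.

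**Figure D1:**
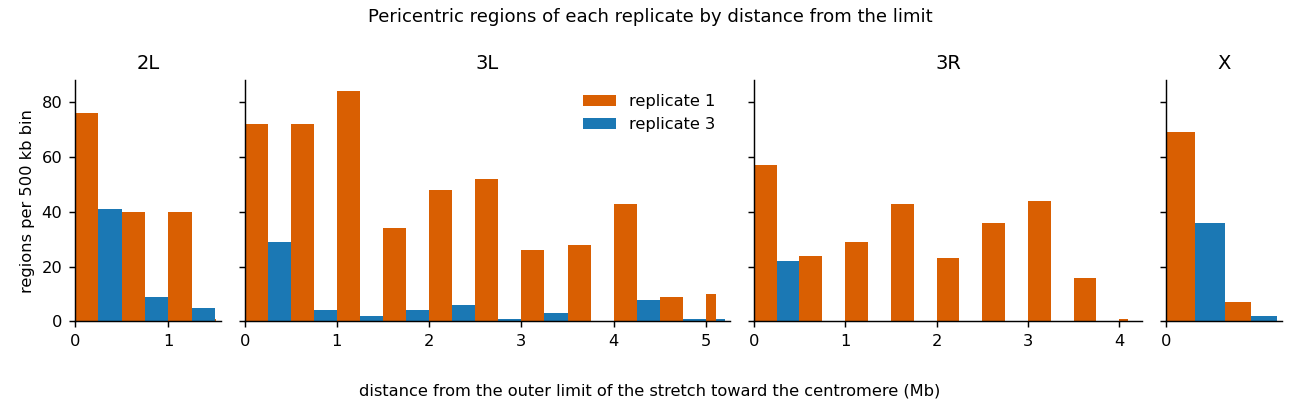
Regions per 500 kb bin (vertical axis) against the distance from the outer limit of the stretch toward the centromere in Mb (horizontal axis), for 2L, 3L, 3R and X; within each bin the left bar is replicate 1 and the right bar replicate 3. Replicate 3 has 128 of its 174 regions in the first bins, where replicate 1 has 274 of 984, and on 3R replicate 3 has none further in.

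The replicates also placed their regions at different depths within the stretches. Of the pericentric regions of replicate 3, 128 (73.6%) lay in the first 500 kb inside the limits, which hold 17% of the known sequence, with a median distance of 0.195 Mb from the limit. Replicate 1 had 274 (27.8%) there and a median of 1.23 Mb, and the pooled list had 172 (45%) and 0.602 Mb. The difference was widest on 3R, where all 22 regions of replicate 3 lay in the first 500 kb, whereas replicate 1 had 57 there and 216 further in. On X most regions of both replicates lay in the first 500 kb, 69 of 76 for replicate 1 and 36 of 38 for replicate 3, and both IDR peaks did too. Within 500 kb of the limits replicate 1 had 274 regions inside and 306 outside, replicate 3 had 128 and 264, the pooled list 172 and 275, and the IDR set 2 and 16. The arms did not all go the same way: on 3L replicate 1 had 72 inside and 135 outside, while on X it had 69 and 21, replicate 3 had 36 and 23 and the pooled list 51 and 25.

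The gap between the stretches and the arms was narrower in both replicates when only unique sequence was counted, and what remained was larger in replicate 3. A window of 50 bp on each side of a position was called unique when each of its 31-base words occurs once in the assembly, which holds at 22.4% of pericentric positions and 93.2% of positions in the rest. Replicate 1 had 614 regions with a unique window, or 234 per Mb of such positions, against 265 per Mb in the rest of the arms. Replicate 3 had 162, or 61.8 per Mb against 270, and the pooled list had 279, or 106 per Mb against 271. The replicates differed most in the part further than 500 kb from the limits, with 248 per Mb of unique positions in replicate 1 and 25.7 per Mb in replicate 3. In the first 500 kb the values were 212 and 118 per Mb. The 2 IDR peaks came to 0.763 per Mb of unique positions, against 27.5 in the rest.

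**Figure D2:**
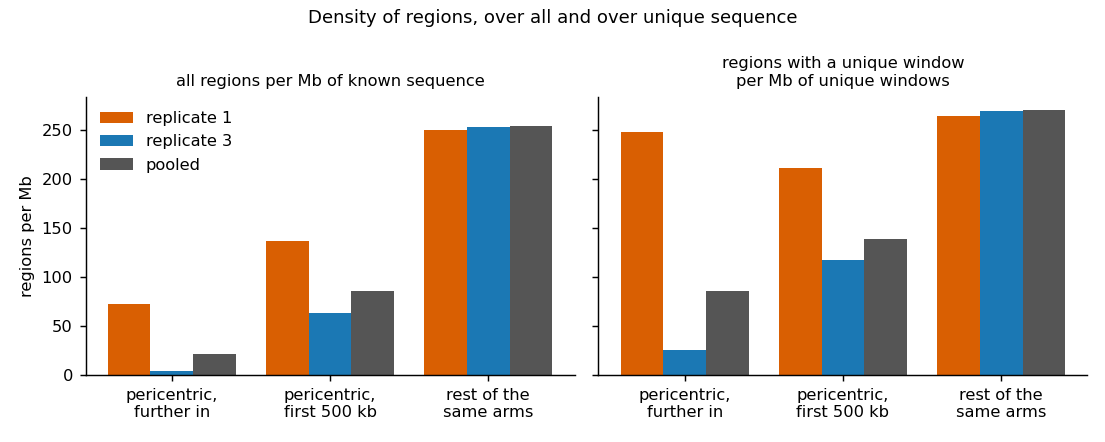
Regions per Mb (vertical axis) further than 500 kb inside the limits, in the first 500 kb inside them and in the rest of the same arms, for replicate 1, replicate 3 and the pooled list; the left panel counts all regions over all known sequence, the right panel regions with a unique window over unique positions. In the right panel replicate 1 lies between 212 and 265 in all 3 zones, while replicate 3 has 25.7, 118 and 270.

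By signal, pericentric regions lay below the regions of the arms but inside their range. The median score was 15.5 in replicate 1 against 16.9 in the rest of the arms, 16.7 against 18.5 in replicate 3, and 23.7 against 27.6 in the pooled list. Few were among the 2962 regions of highest signal in their list, a level that 9.87% of a whole list reaches. Replicate 1 had 10 such pericentric regions (1.02%) against 10.4% in the rest, replicate 3 had 3 (1.72%) against 10.1%, and the pooled list had 2 (0.524%) against 10.1%. The pooled counts, 2 in the stretches and 2454 in the rest, equal those of the IDR set and are not separate support. A −log10 q-value of at least 2 was reached by 3 pericentric regions in replicate 1 (0.305%) against 7.76% in the rest, by 11 in replicate 3 (6.32%) against 20.6%, and by 8 in the pooled list (2.09%) against 14.9%. The highest pooled region of each other arm lay at RpL15 on 3L (score 67.1), 379 bp from the start of CG12581 (FBgn0037213) on 3R (50.2), and 119 bp from the start of the non-coding gene lncRNA:CR46450 (FBgn0287461) on 2L (45.2).

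A region counted as shared when a region of the other replicate overlapped it reciprocally by at least 50%, which held for 25.4% of the whole replicate 1 list and 25.9% of the whole replicate 3 list. Of the pericentric regions of replicate 1, 40 (4.07%, interval 3 to 5.49) were matched in replicate 3, against 26.8% in the rest of the arms. Of those of replicate 3, the same 40 pairs made 23% (interval 17.4 to 29.8), against 26.8%. The share of replicate 3 was near that of the arms. With 984 regions in replicate 1 and 174 in replicate 3, pairs of 1 region each could match at most 17.7% of replicate 1, so its share could not reach that of the arms. Of the 40 pairs, 21 lay on 3L, 9 on X, 6 on 2L and 4 on 3R, and 28 lay in the first 500 kb. Over the 382 pooled regions, 41 (10.7%) matched a region of both replicates, 213 (55.8%) one of replicate 1 alone, 55 (14.4%) one of replicate 3 alone and 73 (19.1%) one of neither. In the rest of the arms these shares were 26%, 26.9%, 33% and 14.1%. A total of 3 pooled pericentric regions (0.785%, interval 0.267 to 2.28) overlapped an IDR peak, on the 2 peaks described above, against 11.3% in the rest of the arms and 11.1% of the whole pooled list.

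Within the 40 pairs the summits lay close together, with a median gap of 38.5 bp and a largest gap of 184 bp, but the scores did not rank alike. The Spearman coefficient between the scores of the replicates was 0.0982 over the 40 pairs and 0.0269 without the highest pair; it is a description over sites of the same libraries, and the lowest scores listed are 13 in replicate 1 and 12.4 in replicate 3 for these pairs. Examples lie on both sides. At MED21 (FBgn0040020), a Mediator subunit gene, the matched regions had scores of 37.1 in replicate 1 and 18.1 in replicate 3, which also had a region of 24.6 at that start, and near the start of l(3)80Fg (FBgn0287183) 31.9 and 14.4. At CG12768 (FBgn0037206) the scores were 22.7 in replicate 1 and 50.2 in replicate 3, and at CG17167 (FBgn0039941) 13.7 and 26.9. Apart from the stronger X peak, RpL15, with 29.3 and 47.5, was the only pair ranked within the first 5000 regions of both lists. These genes were chosen after their values were seen, except RpL15.

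**Figure D3:**
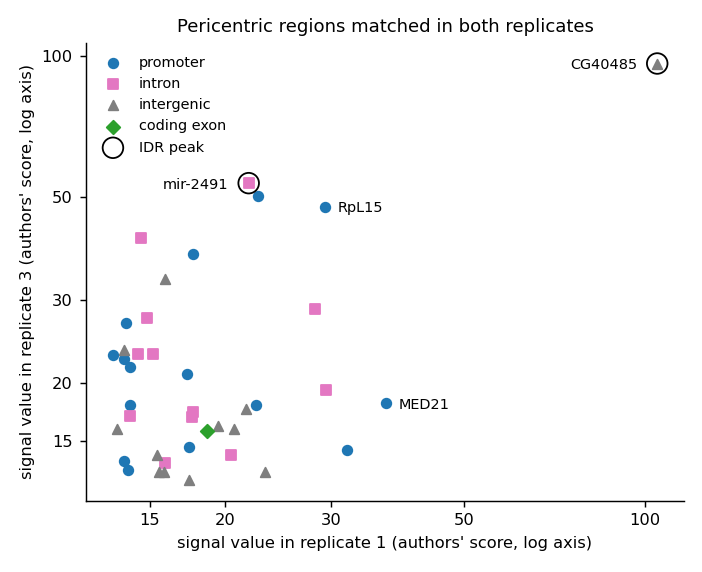
Score of the region in replicate 3 (vertical axis, log scale) against that in replicate 1 (horizontal axis, log scale) for the 40 pericentric pairs, with symbols for the location of the summit and rings round the 2 IDR peaks. The pair near CG40485 stands alone at 105 and 96.2, and the others show no common order (Spearman coefficient 0.0269 without it).

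Summits were put in 1 location class each, with a promoter taken as 500 bp on either side of a protein-coding start. Promoters held 42 of 984 pericentric summits in replicate 1 (4.27%, interval 3.17 to 5.72) against 12.7% in the rest of the arms. In replicate 3 they held 50 of 174 (28.7%, interval 22.5 to 35.9) against 24%, and in the pooled list 57 of 382 (14.9%, interval 11.7 to 18.8) against 17.9%. Introns and intergenic sequence took 49.6% and 39.9% of pericentric summits in replicate 1, against 41.4% and 28.5% in the rest. In replicate 3 they took 31% and 24.7%, against 44.7% and 20%, and 3' UTRs took 6.9% there against 3.15% in the rest. The protein-coding start nearest to a summit lay at a median distance of 37254 bp in replicate 1, against 4088 bp in the rest of the arms, and 1494 bp in replicate 3, against 2235 bp. Within replicate 1 the 40 matched regions had a median distance of 1328 bp and the 944 unmatched ones 40107 bp. The median GC content of the window at the summit was 37.6% for the matched and 44.6% for the unmatched pericentric regions of replicate 1, against 44.6% for its regions in the rest of the arms. For replicate 3 it was 36.6% in the stretches and 39.6% in the rest, and IDR summits in the rest had 32.7%. Replicate 1 was thus the higher in GC content outside the stretches too. What part base composition has in the difference between the libraries was not tested.

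**Figure D4:**
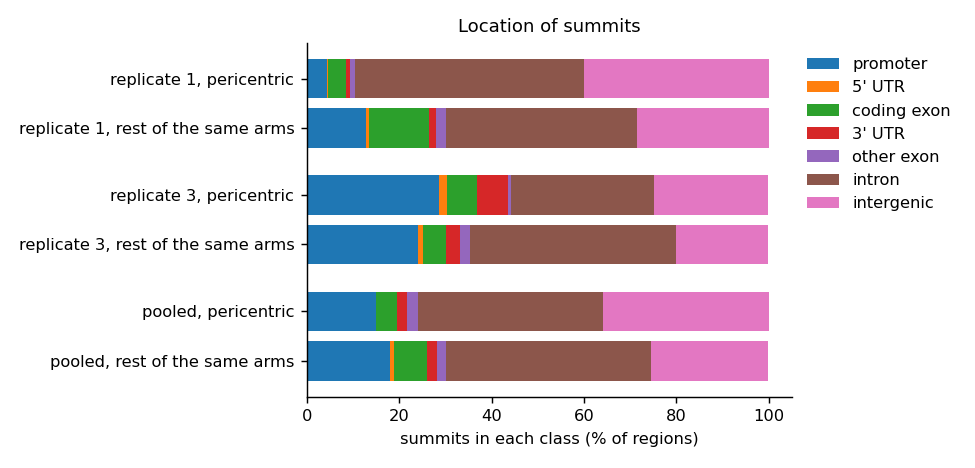
Share of summits in each location class (horizontal axis, % of regions) for pericentric regions and for the rest of the same arms, in replicate 1, replicate 3 and the pooled list. Promoters take 4.27% of pericentric summits in replicate 1 and 28.7% in replicate 3.

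Transposable elements lay under a larger share of pericentric summits than of summits in the arms, in both replicates. They also cover more of the pericentric sequence. An annotated element covered 113 summits in replicate 1 (11.5%, interval 9.64 to 13.6) against 0.269% in the rest, 14 in replicate 3 (8.05%, interval 4.85 to 13.1) against 0.346%, and 50 in the pooled list (13.1%, interval 10.1 to 16.8) against 0.3%. These shares stand beside the 15.1% of the stretches and the 4.07% of the rest that such elements cover. Over the 4 arms together, summits in elements were thus no more frequent than the elements' share of the sequence. They lay far below it in the rest, whereas in the stretches the pooled interval holds it. On 3R replicate 3 went the other way, with 4 of 22 summits in elements that cover 8.5% of that stretch. The 113 summits of replicate 1 fell in 44 kinds of element, led by INE-1, a short non-autonomous element common in heterochromatin, with 18, Cr1a with 10, HMS-Beagle with 7 and the DNA transposon 1360 with 6. INE-1 held 9 of the 14 summits in replicate 3 and 14 of the 50 in the pooled list. Soft-masked sequence lay under 21.4% of the summits of replicate 1 and 23% of those of replicate 3, below the 40.7% of the stretches that is soft-masked. Of the pericentric windows, 62.4% were unique in replicate 1, 93.1% in replicate 3 and 73% in the pooled list, against 99% in the rest for each of the 3 lists. How reads with several possible origins were treated is not given in the sources used here.

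Pericentric genes had regions at their starts about as often as other genes, but none had an IDR peak there. Of the 116 genes, 40 (34.5%, interval 26.5 to 43.5) had a summit of the replicate 1 list within 500 bp of a start, against 27.3% of the 10897 genes in the rest of the arms and 26.6% of all genes. For replicate 3 the count was 44 (37.9%, interval 29.6 to 47) against 46.2% in the rest and 46% of all genes, and for the pooled list 49 (42.2%, interval 33.6 to 51.3) against 37.5% and 37.1%. Both replicates had a summit at the starts of 21 genes (18.1%, interval 12.2 to 26.1), against 18.1% in the rest, whether or not their regions matched by overlap. An IDR summit was found at 0 of the 116, against 11.4% in the rest and 10.9% of all genes. A count of 0 allows a share of up to 2.59% taken as 3 counts, or 3.21% as the upper Wilson bound. The absence depends on the limits: with them 500 kb further from the centromere 14 genes had an IDR summit at a start. The wider limits take in more of the arms, where 11.4% of genes had one. How many genes lie inside them was not counted, so the 14 cannot be read as a share. Summits of the 2962 highest regions of replicate 1 alone and of replicate 3 alone lay at 2 and 1 of the 116 genes. The matching share of all genes was not counted. The promoter regions themselves had lower scores than those of the arms: the pooled median was 26 over 57 pericentric promoter regions, with a highest value of 67.1, against 34.2 over 4364 in the rest. None of the 57 reached the 2962 highest pooled scores, while 22.6% of promoter regions in the rest did. The 987 regions behind that share equal in number the IDR promoter regions of the rest, so this repeats the IDR result. The lowest score in the IDR set outside the stretches was 74.8.

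**Figure D5:**
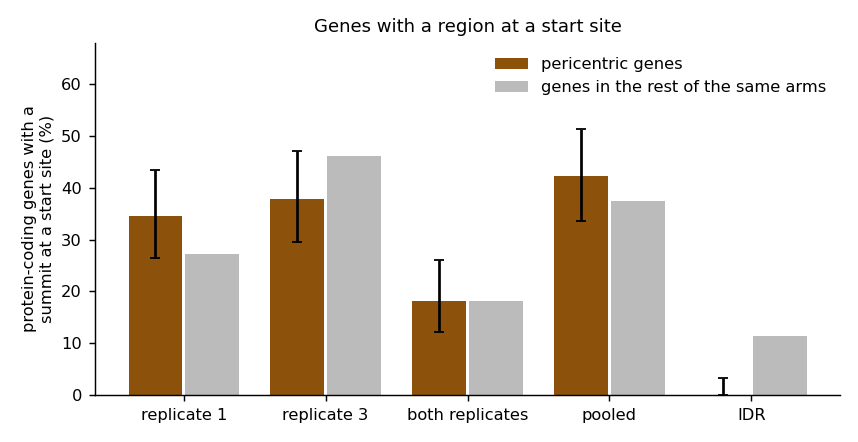
Share of protein-coding genes with a summit within 500 bp of a start (vertical axis, %), for the 116 pericentric genes (bars with 95% Wilson intervals) and the 10897 genes in the rest of the same arms, in each list and in both replicates at once. The shares are 18.1% and 18.1% for both replicates, and 0% and 11.4% for the IDR set.

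All 4 cytosolic ribosomal protein genes in the stretches had a region at the start in both replicates, and none had an IDR peak. Of all protein-coding genes in the rest of the arms, 18.1% had a region at the start in both replicates. RpL15 (FBgn0028697; 3L:27267255-27268445, plus strand) had a score of 29.3 in replicate 1, 47.5 in replicate 3 and 67.1 in the pooled list. RpL10 (FBgn0024733) had 24.4, 37.5 and 59.7, RpL5 (FBgn0064225) 13.8, 23.2 and 28.2, and RpL21 (FBgn0032987) 13.8, 13 and 27.8 in the same order. RpL15 and RpL10 were thus among the highest pericentric promoters. RpL21 was near the floor of both replicate lists, and RpL5 near that of replicate 1. Of the 63 ribosomal protein genes in the rest of the arms, 34 (54%) had a region at the start in replicate 1 and 61 (96.8%) in replicate 3. The pooled list had one at 53 (84.1%) and the IDR set at 40 (63.5%). How many of the 63 had one in both replicates was not counted. This grouping was made after the values were seen.

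Genes known from the genetics of heterochromatin were followed by a list of 27 names, of which 21 lie inside the limits, 1 of them found under an older name (Parp, now Parp1). Summits lay at a start of 9 of the 21 (42.9%) in each of replicate 1, replicate 3 and the pooled list, beside 26.6%, 46% and 37.1% of all genes. Both replicates had a summit at 5 (23.8%), beside 18.1% of genes in the rest of the arms. IDR summits lay at a start of none of the 21, beside 10.9% of all genes, and in the body of none. The 21 are part of the 116 genes above, none of which had one at a start. No share of all genes was counted for bodies, and a list of 21 is short for reading a count of 0. The 5 were RpL5 and RpL15, given above, cta, vtd and Dbp80. At cta (concertina, FBgn0000384; 2L:22981816-22992951), a G protein alpha subunit that acts in the response to Fog at gastrulation, the scores were 19.9 in replicate 1, 13.6 in replicate 3 and 21.1 in the pooled list. At vtd (verthandi, FBgn0260987; 3L:27136525-27157999), which encodes the Rad21 subunit of cohesin, they were 17.4, 14.6 and 22.4. At Dbp80 (FBgn0024804; 3L:27279316-27422159), a DEAD-box RNA helicase gene, they were 13.9, 21.6 and 38.8.

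The other start sites on the list were called in a single replicate or in the pooled list alone. Of the replicates, only replicate 1 had a start-site region at lt (light, FBgn0002566; 2L:22924795-22943135), a vesicle-trafficking gene long used to study variegation, with a score of 16.7. It also had one at spok, a cytochrome P450 of ecdysone synthesis (14.5), at Pzl, a relative of the Piezo channel (13), and at Myo81F, a myosin gene (15). Only replicate 3 had one at nrm, a cell adhesion gene (16.4), at Gfat1, of hexosamine synthesis (18.1), at su(f), of messenger RNA 3' end processing (15.5), and at tio, a zinc finger gene (26.4). At Parp1, which encodes poly(ADP-ribose) polymerase, the pooled list alone had a start-site region (24.3). Set1 (FBgn0040022), for a histone H3 lysine 4 methyltransferase, had none at a start or in its body in any list.

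The longest heterochromatic genes held many regions of replicate 1 within their bodies and few of replicate 3, as did the sequence further than 500 kb from the limits as a whole. Bodies of protein-coding genes cover 44.9% of the stretches and held 53.9% of the pericentric summits of replicate 1, 54% of replicate 3 and 48.2% of the pooled list. Myo81F (FBgn0267431; 3R:567076-2532932), with 1966 kb the longest of the genes named here, held 138 regions of replicate 1, none of replicate 3 and 22 of the pooled list. lovit (FBgn0267429; 3L:25236940-25670980), a transporter gene of visual transmission, held 46 of replicate 1, 1 of replicate 3 and 14 of the pooled list. Pzl (FBgn0267430; 3R:2554162-3263582) held 42, 0 and 4, and Snap25 (FBgn0011288; 3L:24074180-24299205), of the synaptic vesicle fusion machinery, 34, 1 and 9. Per Mb of gene body replicate 1 had 70.2 regions in Myo81F and 59.2 in Pzl, beside 65.4 per Mb over the 3R stretch, and 106 in lovit and 151 in Snap25, beside 93.7 per Mb over the 3L stretch. AGO3 (FBgn0250816; 3L:23554593-23689640), an Argonaute of the piRNA pathway, had 19, 3 and 5 in its body and none at a start, and CG40006 (FBgn0058006) had 22, 0 and 3. Smaller counts were found in scro, a homeobox gene, with 3, 0 and 1, and in Alg-2, with 1, 0 and 0. In replicate 3 the bodies with most regions were those of CG42748 (FBgn0261802) with 17, CG12581 with 8, fog with 8 and CG42346 with 6. The bodies of fog and CG42346 overlap, so a region in the shared part counts for both. All these genes lie near the outer limits and were chosen after their values were seen.

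The leading word of the arms stood at few summits of the replicate and pooled lists, in the stretches and in the arms alike. Its copies were as dense in the stretches as in the arms, but few of the pericentric ones stand in unique windows. ACAGTTTG, counted with its reverse complement, was the word of 8 bases most in excess at the 2454 IDR summits of the same arms outside the stretches: 143 of the windows there held it (5.83%), against 0.693% of flanking windows 200 to 300 bp away. Pericentric windows held it at 4 of 984 summits in replicate 1 (0.407%, interval 0.158 to 1.04) and 4 of 174 in replicate 3 (2.3%, interval 0.898 to 5.76). In the pooled list they held it at 2 of 382 (0.524%, interval 0.144 to 1.89). In the rest of the arms the shares were 1.03%, 1.1% and 1.04%. Each lies inside the interval of its pericentric share, so these few summits set no list apart from its rest. The sequence held 632 pericentric copies, or 53.9 per Mb, against 47.9 per Mb in the rest. Only 112 of the 632 stand in a unique window, against 4227 of 4568 in the rest. Of these unique copies, 4.46% (interval 1.92 to 10) lay at a summit of replicate 1, against 9.39% in the rest. The shares were 3.57% (interval 1.4 to 8.82) against 10.5% in replicate 3, and 1.79% (interval 0.491 to 6.28) against 9.82% in the pooled list. For the IDR set they were 0.893% (interval 0.158 to 4.88) against 4.21%. ACAGTTTG was picked for its excess at IDR peaks of the rest, which raises the shares of the rest. No deficit in the stretches can therefore be read from these shares. Joining ACAGTTTG with CAGTTTGA, the next word, gave ACAGTTTGA, which occurs at 273 pericentric places, or 23.3 per Mb, against 12.1 per Mb in the rest. The stronger X peak was the only pericentric IDR peak within 100 bp of a copy: 1 of the 273 copies (0.366%, interval 0.0647 to 2.05) against 10.7% of 1156 copies in the rest. This word too was learned from IDR peaks of the rest, which raises that share and the shares of the rest given below. Only 33 of the 273 pericentric copies stand in a unique window, as do 970 of those in the rest. Of the 33, 3 lay at a summit of replicate 1 (9.09%, interval 3.14 to 23.6), 2 at one of replicate 3, 1 at one of the pooled list and 1 at an IDR summit (3.03%, interval 0.537 to 15.3). For copies in unique windows in the rest the shares were 19.4% in replicate 1 and 12.6% in the IDR set. A match of letters is a description and does not show a site of CG6654, and with 33 copies the pericentric shares have wide intervals.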

How the data were processed

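ChIP-seq of CG6654-eGFP was analysed for biological replicates 1 and 3 of 1 group. Per the labels' protocols, chromatin was sonicated to a size range of 200 to 800. Per the files deposited with each library, the authors called regions against a control in each replicate and on pooled reads. No source used here names the aligner, the caller or the threshold of the IDR set. The deposited columns used were the authors' score (their signal value, of unstated scale) and −log10 q-value. Scores were used only to describe and rank regions within a list. Lists of dm6 were read with the RefSeq Release 6 genome and Ensembl release 115, which share coordinates; dm3 lists were used only to count rows on Het scaffolds, and no coordinate was converted.

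The members and the gene list were chosen with earlier results of these data known. Values are counts, shares and medians with 95% Wilson intervals, and no test was run, because there is 1 group and regions are not replicates. A gene was counted for a summit within 500 bp of a start. The genes named by rule are those nearest to the pericentric IDR summits, the highest peak of each arm and the list of heterochromatin genes; others are said to be chosen later. Unique windows hold only 31-base words found once in the assembly, a measure added after the data were seen. The word ranking and region matching were tested on simulated data. Python 3.11.15, numpy 2.4.6, pandas 2.3.3 and scipy 1.17.1 were used.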

Additional observations from a re-analysis of the deposited data

Results flagged for a closer look

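The Het scaffolds of the older dm3 build hold heterochromatic sequence of 2L, 3L, 3R and X that is kept apart from the arms in that build. Rows on them were not used in the comparisons above and are given because a signal appears there. No coordinate was converted, so how many of them are the same sites as the dm6 pericentric regions is unknown. The dm3 list of replicate 1 has 468 regions on these scaffolds, 230 of them on 3LHet and 205 on 3RHet. The dm3 list of replicate 3 has 36, with 18 on 3LHet and 10 on 3RHet, and the pooled list has 139. The dm3 IDR set of 2680 peaks has none on them. Replicate 1 is therefore the higher of the replicates there too. These regions come from the same reads as the dm6 lists and are not separate evidence.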

How the results depend on the processing

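Of 55 alternatives over 9 results, 28 kept the value within the spread used here (1 SD between the replicates, the Wilson interval of a share, or 1.5 times a count). The SD comes from the same replicate values that were scored against it, so it is wide where the replicates differ. A pooled density of 0.682 per Mb, for example, counted as within the spread of 32.6. The count of 28 is therefore not a measure of stability. From either replicate alone the density ran from 14.8 to 83.9 regions per Mb. The median signal ran from 90.3% to 91.9% of that of the arms (pooled 85.7%). The promoter share ran from 4.27% to 28.7%, the soft-masked share from 21.4% to 23%, and the share with the leading word from 0.407% to 2.3%. Genes with a top-ranked summit at a start numbered from 1 to 2. In place of the overlap with IDR peaks, the share of pericentric regions among the 2962 of highest signal in the replicate's own list was taken. It ran from 1.02% to 1.72%. Over unique windows, an alternative chosen after seeing the data, the pooled density was 106 per Mb. With the limits 500 kb toward the centromere, no pooled region overlapped an IDR peak (0%), the median signal was 84% of that of the arms and 1.69% of replicate 1 was matched. With them 500 kb away from it, these values were 3.04%, 88.4% and 6.43%, and the soft-masked share was 17.2%. There 14 genes had an IDR summit at a start, of a number of genes that was not counted. The absence of bound genes thus holds for the limits used and not beyond them. In the upper 50% of each list by signal, 3.23% of pooled regions overlapped an IDR peak, 2.19% of replicate 1 and 12.3% of replicate 3 were matched, and the soft-masked share was 15%. Matching by summits within 100 bp gave 2.85% for replicate 1 and 16.1% for replicate 3, and overlap of 1 bp gave 31.6% for replicate 3. With both lists cut to their 2962 regions of highest signal, 10% and 33.3% were matched, over 10 and 3 regions. Against the whole list of the other replicate, 3 of these 10 and 3 of these 3 were matched. In the rest of the arms those shares were 81.8% and 74.4%. Soft-masking over 50% of the window held for 12.6%, and 1 mismatch raised the share with the word to 9.95%. A −log10 q-value of at least 2 left 0.682 pooled regions per Mb. The cause of these moves was not tested. No paired analysis was possible because there is a single group. Depth is unknown, so a site missing from a list may lie below what that library could show.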
